A study of Homo sapiens with 8 samples.

Results

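The data described here separate, among HT29 cells held in the MEK inhibitor selumetinib, the cells that stained for cyclin B1 protein from those that did not. HT29 is a line established from a human colorectal tumour. Of the 8 libraries of the HT29 experiment, 4 form this comparison: 2 of CCNB1-positive and 2 of CCNB1-negative cells, all from cultures given 1 µM selumetinib for 24 h, and chosen by the column names of the deposited table. The remaining 4 libraries, again 2 CCNB1-positive and 2 CCNB1-negative, came from untreated cultures and gave the same comparison without drug. Cells of all 4 groups were fixed with glyoxal, permeabilised, stained for CCNB1 and sorted, and their polyadenylated RNA was sequenced. No label states that the 2 libraries of a group came from separate cultures, so the p-values below measure the spread between these libraries, which may be technical. The CCNB1-negative fraction is defined only by the absence of staining, so it can hold cells of G1 and of early S phase.

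Cyclin B1 is the regulatory partner of CDK1. It accumulates through G2, drives entry into mitosis and is destroyed at anaphase by the anaphase-promoting complex. Much of the G2 and mitotic programme is transcribed late in the cycle under B-MYB, FOXM1 and the MuvB complex, whereas genes for DNA replication are transcribed around the G1/S boundary under E2F factors, which ERK signalling promotes through cyclin D and CDK4/6. Colorectal cancer cells deprived of ERK activity arrest mostly in G1, and the question addressed by the sort is what the few cells that reach G2 in the presence of the drug express.

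The deposited labels disagree on which library is which. For every library the title gives the other treatment and the other fraction from those in its short description, and the labelled growth medium follows the titles. The descriptions, which match the column names of the value table, were used. Under the titles the comparison described as treated would be the untreated one, with every sign changed. DUSP6, an ERK-induced phosphatase gene, had deposited log2 values of 9.21 to 9.89 in the libraries named selumetinib and 10.56 to 11.38 in those named untreated, and ETV5, an ERK-induced transcription factor gene, 6.26 to 8.28 and 9.53 to 9.77. CCNB1 mRNA (ENSG00000134057, chromosome 5 of GRCh38, 69167135 to 69178245) had deposited log2 values of 7.92 and 7.22 in CCNB1-negative and 12.76 and 12.53 in CCNB1-positive libraries of treated cells, so the libraries named positive held more of the transcript of the sorting marker. The untreated libraries gave 11.66 and 12.01 in CCNB1-negative and 13.79 and 14.05 in CCNB1-positive cells. The values are log2 read counts per gene scaled to the total of each library, and they are not corrected for transcript length.

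Reads on genes numbered from 12696860 to 23916160 per library. MALAT1, a nuclear non-coding RNA, took 2.87% and 4.42% of the reads of the treated CCNB1-negative libraries and 2.01% and 3.09% of those of the treated CCNB1-positive libraries, against 0.303% to 0.386% in untreated libraries. Mitochondrially encoded genes took 11.9% to 14.8% of reads in the treated and 4.44% to 7.80% in the untreated libraries. The part of these shares in the results was not tested, except that scaling without these genes is given below. Of the defining epithelial markers, EPCAM, CDH1, KRT8, KRT18, KRT19 and VIL1 were abundant in all 4 treated libraries, from a log2 value of 11.90 for VIL1 to 16.46 for KRT8. KRT20, another of these markers, had 11.96 and 11.21 in treated CCNB1-negative and 12.70 and 11.56 in treated CCNB1-positive libraries. Values of CDX1, CDX2 and LGALS4 are not reported here. Of 18 markers of blood, stromal and endothelial cells only 3 were expressed highly enough to be tested, COL1A1, CD68 and LYZ, and none passed. LYZ, which intestinal secretory cells also express, was the abundant one, and CD3E, CD3D, MS4A1, COL1A2, COL3A1 and HBB had at most 1 read in each treated library.

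The CCNB1-positive and CCNB1-negative fractions of selumetinib-treated cells differed at 3077 of the 14219 genes tested (21.6%, limma, Benjamini-Hochberg adjusted p under 0.05). Genes were tested where their mean over the 8 libraries was at least 4.58, which is the value of 1 RPM (reads scaled to a common library total). In CCNB1-positive cells 1958 genes were higher (13.8%) and 1119 were lower (7.87%). The large differences lay on one side. At least 2-fold higher were 700 genes (4.92%) and at least 2-fold lower 208 (1.46%). At least 4-fold higher in CCNB1-positive cells were 246 genes (1.73%), and at least 4-fold lower were 4 genes (0.0281%), SLC6A16, PDZRN3, KLHL32 and TMOD1. The last of these is named here after its value was seen. These fold counts are those of the deposited scaling. With quantile normalization LINC00930 (-2.41 on the log2 scale), KIAA1324 (-2.26), FAM222A (-2.23), CHN2 (-2.13) and GDPD1 (-2.10) were more than 4-fold lower too. In untreated cells the same comparison called 408 genes (2.87%), 194 higher (1.36%) and 214 lower (1.51%). The 2 comparisons use different libraries. Of the 194 genes higher in untreated CCNB1-positive cells 185 (95.4%) were also higher in treated CCNB1-positive cells, where they made up 9.45% of the higher genes, whereas 58 of the 214 lower genes (27.1%) were shared, 5.18% of the treated ones. A further 43 genes were higher in CCNB1-positive cells under selumetinib and lower in them without it.

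The balance of higher and lower genes depended on the scaling. The median difference over all genes was 0.02 on the log2 scale with the deposited scaling and -0.06 with quantile normalization, under which 1944 genes were higher and 2240 lower. Centring libraries on their medians gave 1569 higher and 1765 lower genes, scaling without mitochondrially encoded genes and MALAT1 gave 1560 and 1375, and limma-voom on the recovered reads gave 1724 and 1721. The count also rested on single libraries. Without CCNB1-negative replicate 2 it was 1156 genes, without CCNB1-positive replicate 1 it was 1278 and without CCNB1-positive replicate 2 it was 1621, with 166, 238 and 432 lower genes respectively. Without CCNB1-negative replicate 1 it was 4279. These are bulk libraries, in which fewer cells of one kind and less of a transcript per cell cannot be told apart.

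The plot of lists by share shows where the differences lay.

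**Figure D1:**
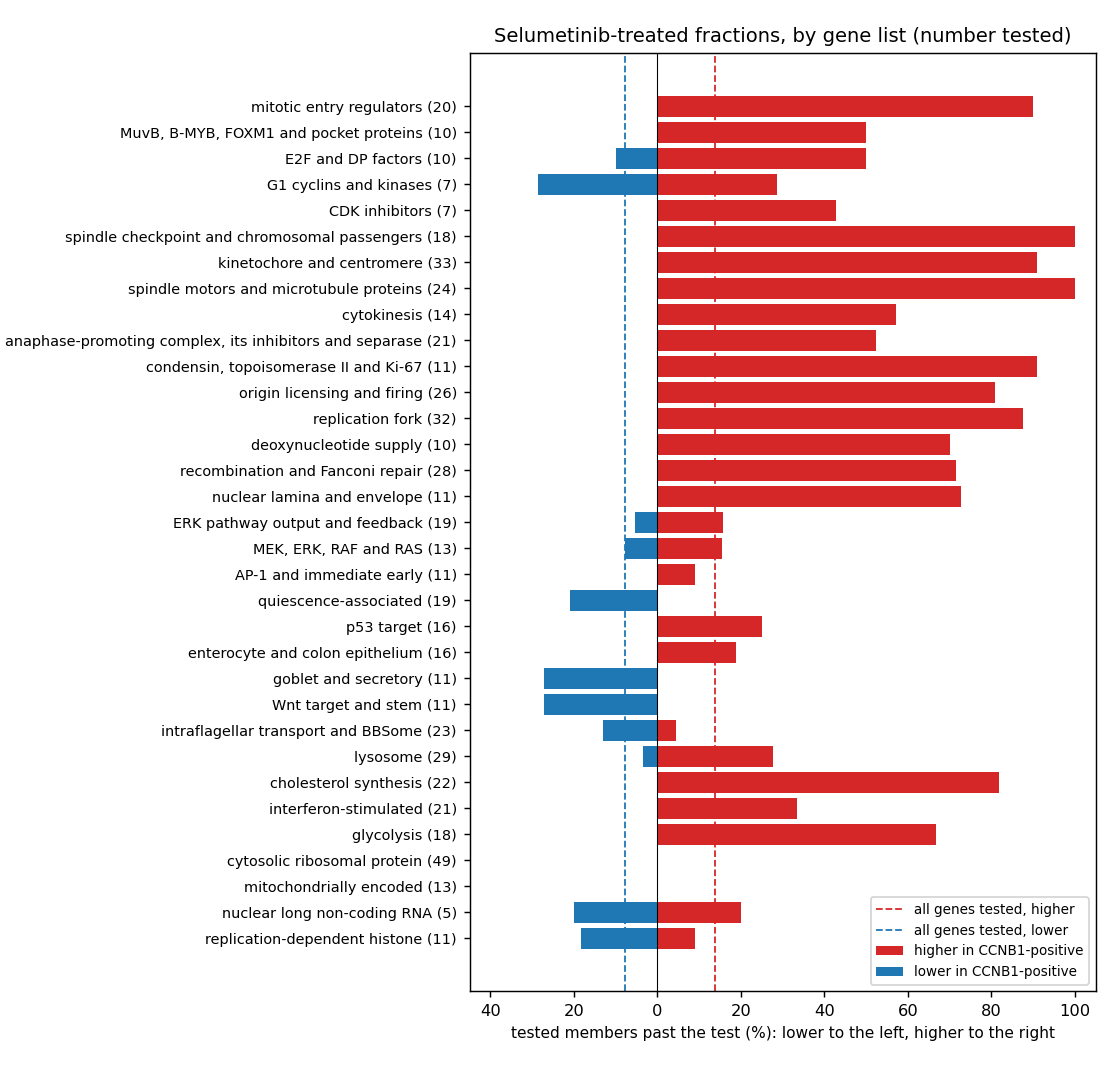
Share of tested members of each gene list with at least 5 genes tested that passed the test between selumetinib-treated fractions (x axis, percent, higher in CCNB1-positive cells to the right in red and lower to the left in blue), with the number of genes tested in brackets. Dashed lines mark the shares over all genes tested, 13.8% higher and 7.87% lower. All 24 spindle motor and all 18 spindle checkpoint genes were higher, and 0 of 49 ribosomal protein genes passed.

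Promoters of mitotic genes are known for CCAAT boxes and the cell cycle homology region, and those of G1/S genes for E2F sites. RefSeq promoter windows, from 250 bases before to 50 bases after the start, were at hand for 10203 of the 14219 genes tested, which is too few to compare shares between sets of genes. The stretches shown end where an annotated exon begins and lie within the 120 bases before the RefSeq start, on GRCh38.p14. Capitals mark CCAAT, which reads ATTGG when it lies on the other strand. They also mark TTTGAA, a form of the cell cycle homology region bound by MuvB, which reads TTCAAA on the other strand. Other forms of that region were not searched, so a stretch without these capitals may still hold one. The E2F-type letters TTTGGCGC or TTTCGCGC are in capitals as well (GCGCGAAA where the latter lies on the other strand, and the former was likewise searched on both). The first 5 genes are mitotic and the last 3 are G1/S genes discussed below. They were picked, after values were seen, to show how the letters are arranged in both programmes.
CCNB1, chr5:69167030-69167134, plus strand: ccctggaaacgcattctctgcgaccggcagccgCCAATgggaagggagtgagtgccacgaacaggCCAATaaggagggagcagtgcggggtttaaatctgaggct
CCNB2, chr15:59105026-59105125, plus strand: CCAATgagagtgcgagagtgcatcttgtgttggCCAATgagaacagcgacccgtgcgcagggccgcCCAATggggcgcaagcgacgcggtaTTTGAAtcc
CDC20, chr1:43358861-43358980, plus strand: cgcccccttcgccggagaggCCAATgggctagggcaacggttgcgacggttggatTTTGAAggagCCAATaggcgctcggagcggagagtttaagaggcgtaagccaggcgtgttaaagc
KIF20A, chr5:138178992-138179111, plus strand: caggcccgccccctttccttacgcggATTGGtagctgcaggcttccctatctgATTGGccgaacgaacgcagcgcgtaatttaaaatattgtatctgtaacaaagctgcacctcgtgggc
KIF11, chr10:92593010-92593129, plus strand: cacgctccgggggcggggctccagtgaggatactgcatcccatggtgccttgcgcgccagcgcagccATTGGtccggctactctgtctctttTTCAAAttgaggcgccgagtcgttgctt
E2F1, chr20:33686386-33686505, minus strand: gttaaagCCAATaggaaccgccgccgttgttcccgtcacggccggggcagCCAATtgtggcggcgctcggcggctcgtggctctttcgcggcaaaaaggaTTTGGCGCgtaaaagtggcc
E2F2, chr1:23531234-23531353, minus strand: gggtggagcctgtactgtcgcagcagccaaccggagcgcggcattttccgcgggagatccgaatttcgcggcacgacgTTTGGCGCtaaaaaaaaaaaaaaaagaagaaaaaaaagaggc
MCM6, chr2:135876444-135876563, minus strand: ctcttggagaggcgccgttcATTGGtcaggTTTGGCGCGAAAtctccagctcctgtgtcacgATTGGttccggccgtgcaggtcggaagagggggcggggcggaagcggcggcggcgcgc

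In CCNB1 the CCAAT letters begin 87 and 55 bases before the start, and in CCNB2 they begin 120, 87 and 54 bases before it, upstream of TTTGAA at 29. In MCM6 the run TTTGGCGCGAAA holds 2 overlapping E2F-type matches, at 90 and 86 bases. Over the 27305 RefSeq windows of the same length, 35.7% hold CCAAT on either strand, 15.4% hold TTTGAA and 1.18% hold an E2F-type match, so the first 2 are common letters. A match is a description of the sequence only.

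Regulators of mitotic entry were higher in the treated CCNB1-positive fraction, with 18 of 20 genes called against 13.8% of all genes and a median log2 difference of 3.40. CCNB1 itself was 33.8-fold higher (log2 difference 5.08, standard error 0.21, adjusted p = 5.4e-10 in limma, as for all adjusted p-values below). CDK1, its kinase partner, had log2 values of 7.31 and 6.38 in the negative and 11.57 and 11.60 in the positive libraries, a difference of 4.74. PLK1, the kinase that activates CDK1 and builds the spindle poles, had 7.71 and 7.10 against 12.17 and 11.90, a difference of 4.63. For both genes the 2 positive libraries lay above the 2 negative ones, as they did for 4686 of the 14219 genes tested. AURKA, which activates PLK1, was 23.3-fold higher and TPX2, the spindle factor that activates AURKA, was 25.0-fold higher. CCNA2 and CCNB2, cyclins of S phase and G2, were 17.6-fold and 15.1-fold higher. GTSE1, a G2 and M microtubule protein that restrains p53, was 28.9-fold higher. The phosphatase gene CDC25B moved least among the mitosis-promoting phosphatases, by 1.21 on the log2 scale, from 11.50 and 11.30 to 12.66 and 12.57. ENSA and ARPP19, inhibitors of the phosphatase PP2A that are expressed through the cycle, were the 2 members that did not pass, with differences of 0.18 and 0.40.

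The same 20 genes had a median difference of 1.56 in untreated cells, where 14 were called higher, against 1.36% of all genes. For 17 of them the treated difference was the larger one by the interaction term (5.33% of all genes passed that test, 4.99% with the higher and 0.345% with the lower difference under selumetinib). Leaving out each library in turn kept this count between 15 and 18. For CCNB1 the untreated difference was 2.09 and the interaction 2.99 (adjusted p = 1.8e-05). CDC25B was an exception, with 1.43 in untreated cells and an interaction of -0.21 (adjusted p = 0.60). Because each median over all genes shifted with the scaling (from 0.11 to -0.03 for the interaction under quantile normalization), small interactions are to be read against that shift.

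**Figure D2:**
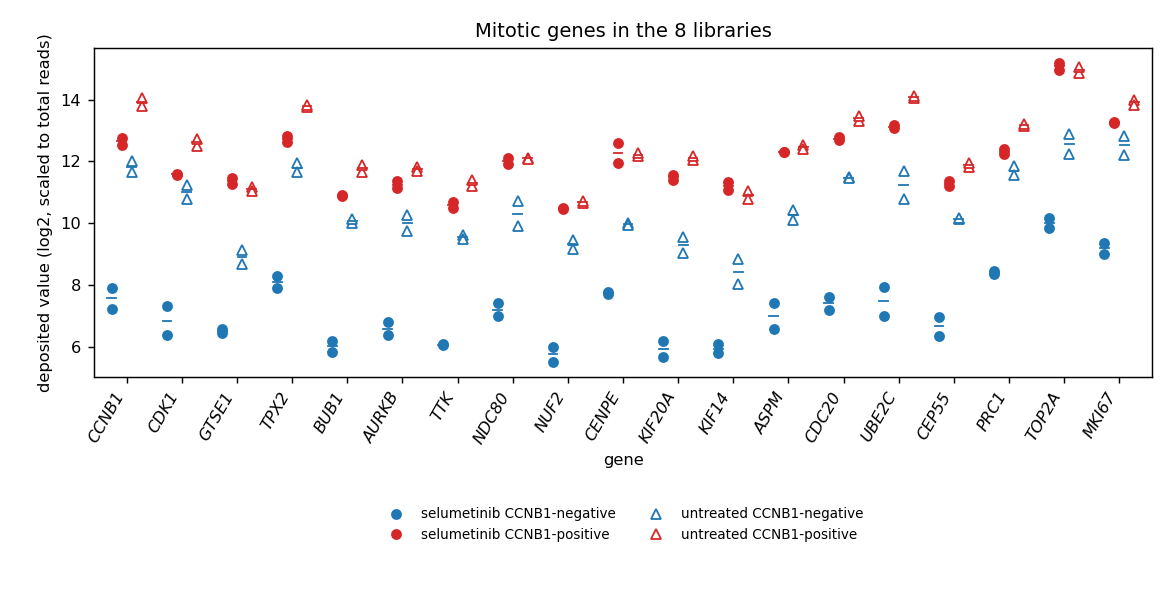
Deposited log2 values (y axis) of 19 mitotic genes in the 8 libraries, with circles for selumetinib-treated and triangles for untreated libraries, blue for CCNB1-negative and red for CCNB1-positive, and a bar at the mean of each pair. For CCNB1 the treated CCNB1-negative libraries lie at 7.92 and 7.22, below the other 6 libraries at 11.66 to 14.05, and the other genes show the same order of the treated pairs.

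Some transcriptional regulators of this programme were higher as well. FOXM1, the forkhead factor of G2 genes, had log2 values of 8.24 and 8.22 in treated CCNB1-negative and 11.98 and 12.19 in treated CCNB1-positive libraries, which is 14.4-fold higher. MYBL2, which encodes B-MYB, had 9.11 and 9.07 against 11.69 and 11.57, and in untreated cells its fractions differed by only 0.24 (adjusted p = 0.49). The MuvB subunits LIN9 and LIN54 and the pocket protein gene RBL1 were also higher, by 1.74, 0.70 and 1.06, whereas LIN37, LIN52, RBBP4, RBL2 and RB1 lay between -0.19 and 0.06 and did not pass. In all 5 of 10 genes of this list were called higher, against 13.8% of all genes. Without CCNB1-positive replicate 2 the count was 3, and RBL1 was among the genes that lost their call.

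All 18 genes of the spindle checkpoint and the chromosomal passenger complex were higher, by a median of 3.59 on the log2 scale against 1.00 in untreated cells. BUB1, a checkpoint kinase, had log2 values of 6.17 and 5.85 in treated CCNB1-negative and 10.90 and 10.88 in treated CCNB1-positive libraries, a 29.4-fold difference. AURKB, the kinase of the passenger complex, was 25.2-fold higher and TTK, the kinase that starts checkpoint signalling, was 23.0-fold higher. HASPIN, which marks the inner centromere for that complex, was counted 4 and 1 times in CCNB1-negative and 63 and 52 times in CCNB1-positive libraries of treated cells, so its fitted difference of 4.55 is imprecise. The smallest difference was that of MAD1L1, the anchor of MAD2 at kinetochores, at 0.48, a call lost under most alternatives. Without CCNB1-negative replicate 2 or CCNB1-positive replicate 1 the count was 16 of 18.

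Of 33 tested kinetochore and centromere genes 30 were higher and none was lower. The microtubule-binding NDC80 complex moved most, with NDC80 at 7.42 and 6.99 in the treated CCNB1-negative and 11.92 and 12.12 in the treated CCNB1-positive libraries and NUF2 26.2-fold higher. CENPE, a kinetochore motor, was 23.1-fold higher and HJURP, the chaperone that loads the centromeric histone, 22.8-fold higher. The 3 members that did not pass, MIS12, NSL1 and PMF1, all belong to the MIS12 complex, with differences from -0.02 to 0.15. DSN1, the other subunit of that complex, was higher by 1.35.

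The 24 genes for spindle motors and microtubule proteins were all higher in the treated CCNB1-positive fraction, with differences from 1.71 for KIF15 to 5.55 for KIF20A and a median of 4.33. All 24 were also higher in untreated CCNB1-positive cells, by a median of 1.75, and for 22 the interaction passed with the larger difference under selumetinib. KIF20A, a motor of the central spindle, had log2 values of 6.20 and 5.67 in treated CCNB1-negative and 11.56 and 11.41 in treated CCNB1-positive libraries, a 46.8-fold difference. KIF14, a motor needed for cytokinesis, was 38.6-fold higher, and ASPM, a spindle pole protein, 39.7-fold higher. PIMREG, a mitotic regulator, was 45.9-fold higher. KIF11, the motor that separates spindle poles, was 10.5-fold higher. The treated count was 24 under every alternative and without each library, while 23 or 24 were called in untreated cells and 22 to 24 interactions passed.

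Of 14 cytokinesis genes 8 were higher, against 13.8% of all genes. CEP55, which recruits the abscission machinery, was 24.7-fold higher, ANLN, the contractile ring scaffold, 17.3-fold, PRC1, the bundler of the central spindle, 15.1-fold and RACGAP1, a partner of its motor, 14.5-fold. The septins SEPT2, SEPT7 and SEPT9 and the abscission factors TSG101, PDCD6IP and CHMP4B did not pass. For the anaphase-promoting complex 11 of 21 genes were higher. Its activator CDC20 had log2 values of 7.62 and 7.20 in the negative and 12.78 and 12.68 in the positive libraries, its conjugating enzyme UBE2C rose from 7.93 and 7.01 to 13.17 and 13.09, and its substrate PTTG1, the securin, was higher by 4.39 on the log2 scale. ESPL1, the separase that securin holds, was 18.9-fold higher. The subunits of the complex itself lay between -0.15 and 0.86.

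Of 11 genes for condensin, topoisomerase II and Ki-67 10 were higher. TOP2A, which untangles sister chromatids, had 10.18 and 9.85 in treated CCNB1-negative and 14.96 and 15.19 in treated CCNB1-positive libraries, a 33.5-fold difference. MKI67, the surface coat of mitotic chromosomes and a proliferation marker, was 16.7-fold higher, and the condensin genes NCAPG and NCAPH 19.4-fold and 16.5-fold. TOP2B, the isoform of non-dividing cells, did not pass (-0.27). In the nuclear lamina list 8 of 11 genes were higher, LMNB1 by 2.95 and LMNB2 by 2.17, while LMNA, the lamin of differentiated cells, was higher by 0.88.

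The 10 genes that rose most, by the rule for named genes, were PIF1, DEPDC1, UBE2C, KIF20A, PIMREG, CDC20, ASPM, KIF14, CCNB1 and TOP2A. PIF1, a DNA helicase expressed late in the cycle (ENSG00000140451, chromosome 15, 64815632 to 64825668), had log2 values of 6.32 and 5.22 in treated CCNB1-negative and 12.40 and 12.68 in treated CCNB1-positive libraries, which is 109-fold higher (log2 difference 6.77, standard error 0.39, adjusted p = 1.4e-08). In untreated cells it was at 8.73 and 7.26 in CCNB1-negative and 12.02 and 11.59 in CCNB1-positive libraries, so the CCNB1-positive libraries with and without drug lay close and the CCNB1-negative ones apart. DEPDC1, a mitotic regulator, was counted 18 and 16 times in CCNB1-negative libraries of treated cells and was 56.9-fold higher in CCNB1-positive ones. Each of the 10 kept its call under every alternative and without each library.

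Genes for DNA replication were also higher in treated CCNB1-positive cells, and many differed in direction from untreated cells. For origin licensing and firing 21 of 26 genes were higher and none was lower, with a median log2 difference of 1.42. In untreated cells none of these was higher, 10 were lower in CCNB1-positive cells (1.51% of all genes were lower) and the median was -0.43. The interaction passed for 20 of the 26, all in the same direction, with a median of 2.18. Without each library in turn the interaction count was 20 to 22 and the number lower in untreated cells 6 to 10.

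MCM2, a subunit of the replicative helicase loaded at origins, shows the pattern. It had log2 values of 8.73 and 8.48 in treated CCNB1-negative and 10.01 and 10.07 in treated CCNB1-positive libraries (2.71-fold higher, adjusted p = 9.0e-06). In untreated libraries it was at 12.34 and 12.55 in CCNB1-negative and 11.50 and 11.58 in CCNB1-positive cells, a difference of -0.90 (adjusted p = 0.0026). The 2 treated fractions thus lay below both untreated ones and in the opposite order. MCM5 behaved alike, with 1.20 under selumetinib, -1.50 without and an interaction of 2.70 (adjusted p = 4.9e-06). CDC6, the ATPase that loads the helicase, had 1.49 and -1.51 and an interaction of 3.01. MCM6 had a smaller treated difference of 0.59 (adjusted p = 0.015), which lost its call without CCNB1-negative replicate 2, CCNB1-positive replicate 1 or CCNB1-positive replicate 2. MCM7 was at 12.03 and 11.98 against 12.18 and 12.27, a difference of 0.22 that did not pass (adjusted p = 0.29). TICRR, which recruits firing factors, was the largest of the list at 11.1-fold higher, followed by RECQL4 at 5.50-fold, DBF4, the activator of the CDC7 kinase, at 4.67-fold and ORC6 at 4.66-fold. ORC2, ORC4 and ORC5, subunits of the origin recognition complex, and GMNN, the inhibitor of licensing, did not pass. For GMNN the difference was 0.26 (adjusted p = 0.29).

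**Figure D3:**
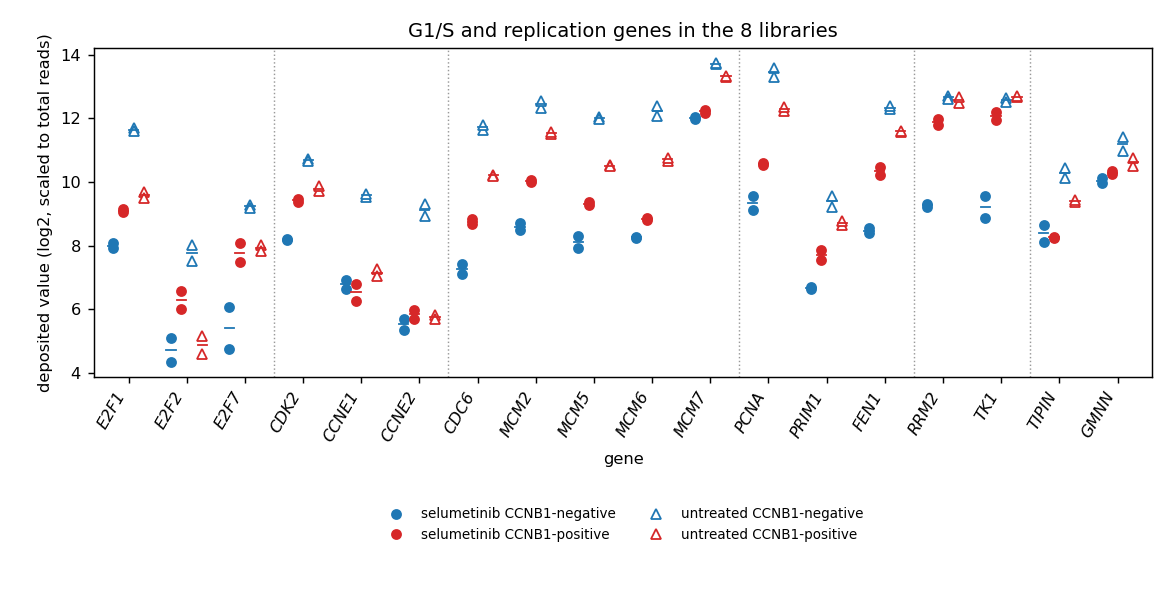
Deposited log2 values (y axis) of 18 genes of the G1/S transition, origin licensing, the fork and nucleotide supply in the 8 libraries, with symbols as for the mitotic genes and dotted lines between groups of genes. For E2F1 the untreated CCNB1-negative libraries (11.69 and 11.61) lie above the CCNB1-positive ones (9.69 and 9.50), whereas the treated CCNB1-negative libraries (7.93 and 8.07) lie below the CCNB1-positive ones (9.05 and 9.15).

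At the replication fork 28 of 32 genes were higher in treated CCNB1-positive cells, by a median of 1.07, against a median of -0.49 and 9 lower genes in untreated cells. The interaction passed for 26, all positive (a higher signed difference under selumetinib), and for 22 to 27 without each library. PCNA, the sliding clamp, had log2 values of 9.57 and 9.11 in treated CCNB1-negative and 10.53 and 10.59 in treated CCNB1-positive libraries, a 2.32-fold difference, and fell by 1.15 between the untreated fractions. ASF1B, a histone chaperone of the fork, was 7.80-fold higher, RFC3, a clamp loader subunit, 4.84-fold, FEN1, the flap nuclease, 3.70-fold and RPA3, a subunit of the single-strand binding protein, 3.51-fold. PRIM1, the primase, was 2.06-fold higher and WDHD1, which tethers polymerase alpha, 2.12-fold. TIPIN, which holds the fork together when it stalls, was at 8.13 and 8.64 in treated CCNB1-negative and 8.24 and 8.27 in treated CCNB1-positive libraries, a difference of -0.13 with a standard error of 0.19 (adjusted p = 0.65). The 2 ranges overlap. RFC1, POLA1 and POLD4 also did not pass.

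Genes for nucleotide supply and repair were higher too. TK1, the thymidine kinase, was 7.33-fold higher, RRM2, the regulatory subunit of ribonucleotide reductase, 6.20-fold, and TYMS, the thymidylate synthase, 4.95-fold, and 7 of 10 genes of the list were higher. RRM2B and DCTD were among those that did not pass. Of 28 genes for homologous recombination and the Fanconi pathway 20 were higher, by a median of 1.61, against -0.19 in untreated cells. POLQ, the polymerase of microhomology-mediated repair, had 8.17 and 8.52 in treated CCNB1-negative and 11.34 and 11.45 in treated CCNB1-positive libraries, an 8.27-fold difference, and FANCD2 was 8.03-fold higher. CHEK1, the checkpoint kinase of replication stress, was 2.84-fold higher. PLK2 and PLK3, stress-responsive kinases of the polo family, had differences of 0.11 and -0.10 that did not pass (adjusted p = 0.65 and 0.71).

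**Figure D4:**
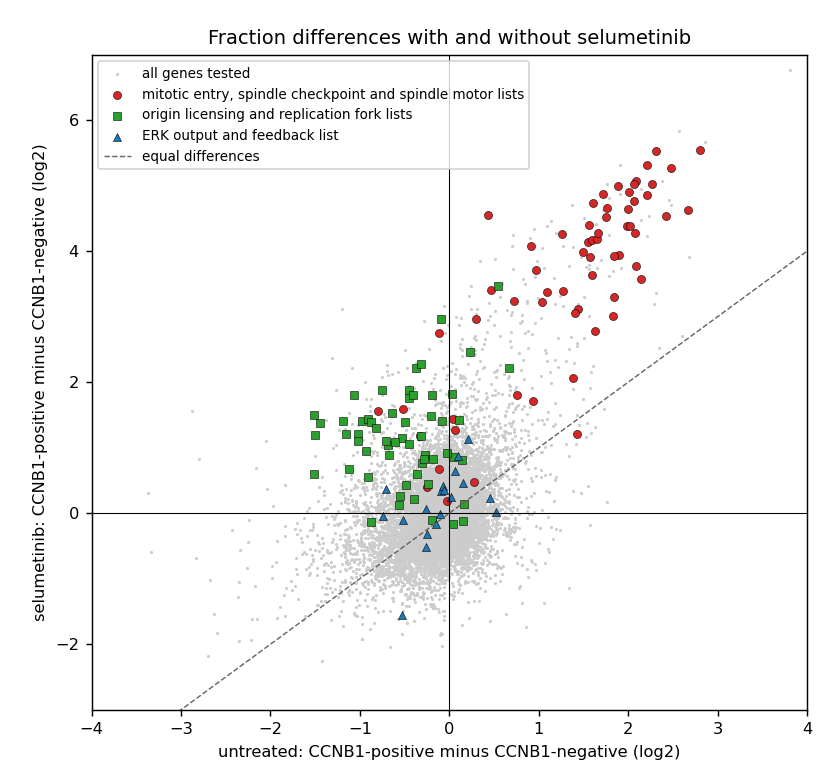
Log2 difference between CCNB1-positive and CCNB1-negative cells without selumetinib (x axis) and with it (y axis) for all 14219 genes tested (grey) and members of 6 lists, with the dashed line where both are equal. Most genes of the mitotic lists lie up to the right, positive in both, while most licensing and fork genes lie at the upper left, with list medians of 1.42 and 1.07 under selumetinib and -0.43 and -0.49 without it. The ERK output genes scatter around 0, with EPHA4 the lowest of them under selumetinib.

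The E2F factors themselves differed between treatments. E2F1, an activator, was 2.14-fold higher in treated CCNB1-positive cells (adjusted p = 1.7e-04) and fell by 2.05 on the log2 scale between the untreated fractions. E2F2 was counted 22 and 12 times in treated CCNB1-negative and 57 and 61 times in treated CCNB1-positive libraries, and 237 and 145 against 36 and 22 in untreated libraries. Its treated difference of 1.57 lost its call without CCNB1-negative replicate 2 or CCNB1-positive replicate 2. The repressors E2F7 and E2F8, which shut off G1/S genes later in the cycle, were 5.18-fold and 4.30-fold higher. In all 5 of 10 E2F and DP genes were higher, against 13.8% of all genes. TFDP2 was lower, from 11.74 and 12.29 to 11.02 and 11.09. E2F1, E2F2 and MCM6, whose promoter stretches with E2F-type letters are printed above, are thus genes whose order of fractions differed with the drug.

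Of 7 tested G1 cyclins and kinases 2 were higher and 2 were lower in treated CCNB1-positive cells (13.8% and 7.87% of all genes). CCNE2, the E cyclin of the G1/S transition, had log2 values of 5.69 and 5.35 in treated CCNB1-negative and 5.69 and 5.98 in treated CCNB1-positive libraries, which touch, a difference of 0.32 (adjusted p = 0.43). In untreated cells it fell from 8.94 and 9.32 to 5.83 and 5.69, so the untreated CCNB1-negative libraries alone stood high. CCNE1 gave -0.26 (adjusted p = 0.45) and -2.43 in the same comparisons. CDK2, their partner, was 2.37-fold higher in treated CCNB1-positive cells and fell by 0.90 on the log2 scale between the untreated fractions. CDK6 and CCND3, which act before the restriction point, were lower, with differences of -0.64 and -0.63. Both lost their call without CCNB1-negative replicate 2 or CCNB1-positive replicate 1, and CCND3 also without CCNB1-positive replicate 2. CDK4 did not pass (0.41, adjusted p = 0.081).

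Of 7 CDK inhibitor genes 3 were higher in treated CCNB1-positive cells (13.8% of all genes were higher) and none was called lower. CDKN2C, which encodes the CDK4/6 inhibitor p18 and is an E2F-regulated gene, had log2 values of 3.97 and 4.22 in treated CCNB1-negative and 8.32 and 8.02 in treated CCNB1-positive libraries, which is 16.8-fold higher on 10 and 11 reads in the former. CDKN2D, the related p19, was 4.45-fold higher. CDKN1B, which encodes p27, an inhibitor of CDK2 that marks quiescent cells, was at 9.76 and 9.14 against 10.59 and 10.31, adjusted p = 0.0028. CDKN1A, which encodes p21, varied between replicates, with 6.90 and 5.67 against 7.86 and 6.51, and did not pass in the unpaired fit (adjusted p = 0.20). Each CCNB1-positive library was above the CCNB1-negative library of the same number, and the gene was called under the replicate block within each treatment given below. CDKN2A, CDKN2B and CDKN1C did not pass.

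Of 19 tested genes of ERK output and feedback 3 were higher and 1 was lower in treated CCNB1-positive cells, near the shares of all genes (13.8% and 7.87%). The median was 0.23, or 0.15 with quantile normalization. DUSP6, the ERK phosphatase used as a readout of pathway activity, had log2 values of 9.46 and 9.73 in treated CCNB1-negative and 9.21 and 9.89 in treated CCNB1-positive libraries, which overlap, against 11.38 and 11.33 and 10.66 and 10.56 in the untreated ones. SPRY4, a feedback inhibitor, gave -0.32 (adjusted p = 0.37), EGR1 -0.10 (adjusted p = 0.77) and MYC 0.36 (adjusted p = 0.13). ETV5, an ERK-induced ETS factor, was higher by 1.14, from 6.26 and 6.89 to 7.16 and 8.28, while the untreated libraries lay between 9.53 and 9.77. EPHA2, an ERK-dependent receptor, was higher by 0.65 and CCND1, the D cyclin that ERK induces, by 0.47. EPHA4, from the same receptor family, was lower, with a difference of -1.56. These 4 calls did not stand in every setting. CCND1 lost its call in 10 of the alternatives, limma-voom and 3 of the 4 treated leave-outs among them, ETV5 under limma-voom and without CCNB1-negative replicate 1 or CCNB1-positive replicate 2, and EPHA2 and EPHA4 without CCNB1-negative replicate 2 or CCNB1-positive replicate 1. EPHA4 lost it without a filter on low values as well. For the list, 1 gene was higher without CCNB1-negative replicate 2 or CCNB1-positive replicate 2, and 2 without CCNB1-positive replicate 1. No interaction passed for any of the 19, and up to 3 did when a library was left out.

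In the MEK, ERK, RAF and RAS list NRAS and HRAS were higher by 0.75 and 0.64 and BRAF was lower (-0.68), and the other 10 of 13 genes did not pass, again near the shares of all genes. Each of these 3 calls was lost without at least 1 treated library. Of 11 tested AP-1 and immediate early genes IER5 alone was higher (0.82), against 13.8% of all genes. Its call was lost without CCNB1-negative replicate 2 or CCNB1-positive replicate 1.

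**Figure D5:**
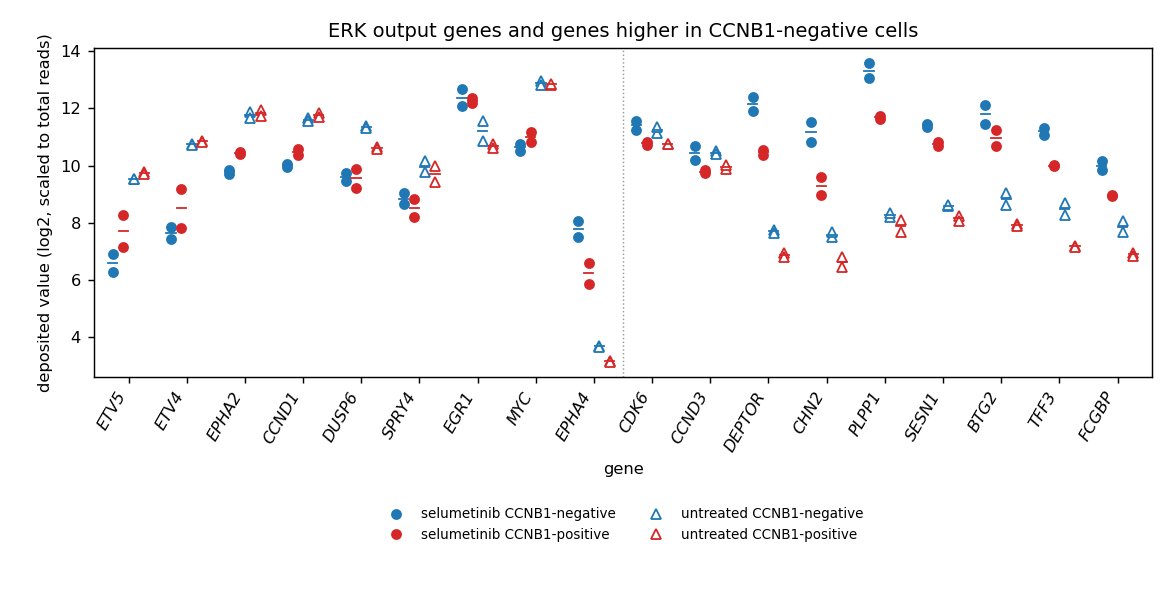
Deposited log2 values (y axis) of 9 ERK output genes, left of the dotted line, and 9 genes that were lower in treated CCNB1-positive cells, right of it, with symbols as for the mitotic genes. For DUSP6 the treated fractions overlap at 9.21 to 9.89, whereas for PLPP1 the treated CCNB1-negative libraries (13.05 and 13.60) lie above the CCNB1-positive ones (11.63 and 11.74).

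The genes higher in CCNB1-negative cells under selumetinib had smaller differences. By the rule for named genes, the 10 with the largest fall were SLC6A16, PDZRN3, KLHL32, LINC00930, CHN2, KIAA1324, FAM222A, DEPTOR, GDPD1 and PLPP1. Their differences ran from -2.25 to -1.64. TMOD1, named above, did not meet that rule. PLPP1, a lipid phosphate phosphatase (ENSG00000067113, chromosome 5, 55424854 to 55534969), was 3.12-fold lower in CCNB1-positive cells (standard error 0.19 on the log2 scale, adjusted p = 2.8e-05), and its untreated libraries lay between 7.68 and 8.33, far below all treated ones. DEPTOR, an inhibitor of mTOR, had 11.91 and 12.40 in treated CCNB1-negative and 10.38 and 10.56 in treated CCNB1-positive libraries, 3.20-fold lower, and 6.79 to 7.76 in untreated libraries. CHN2, a GTPase-activating protein for RAC, was 3.78-fold lower. These 3 kept their call in every alternative, and GDPD1 in every one but the 10 RPM filter, under which it was not tested. SLC6A16, an orphan transporter, had 9.81 and 9.91 against 7.65 and 7.57 and lost its call without CCNB1-negative replicate 2, as did PDZRN3, KLHL32, LINC00930, KIAA1324 and FAM222A. KLHL32 and KIAA1324 also lost it without CCNB1-positive replicate 1, KIAA1324 without CCNB1-positive replicate 2, and LINC00930 without any 1 of the 4 treated libraries. In untreated cells PDZRN3, FAM222A, LINC00930 and DEPTOR were lower in the CCNB1-positive fraction too, with differences of -2.70, -2.60, -2.35 and -0.84. PDZRN3 had 11 and 3 reads there and LINC00930 had 4 and 1. SLC6A16, KLHL32, CHN2, KIAA1324, GDPD1 and PLPP1 did not pass between untreated fractions. Of these, KIAA1324 had 2 to 7 reads in the untreated libraries, KLHL32 4 to 10, SLC6A16 4 to 25 and GDPD1 15 to 25. With so few reads a difference without drug could be missed, and that of SLC6A16 was -1.43 (adjusted p = 0.12 in limma).

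Of 19 quiescence-associated genes 4 were lower and none higher (7.87% of all genes were lower), with a median of -0.37. BTG2, an antiproliferative gene, fell from 12.12 and 11.46 to 11.25 and 10.69, SESN1, a stress-induced inhibitor of mTOR signalling, from 11.46 and 11.34 to 10.82 and 10.69, and FOXO3 and MXD4 had differences of -0.57 and -0.49. Without CCNB1-positive replicate 2 none of the 4 was called, without CCNB1-positive replicate 1 there were 2 and without CCNB1-negative replicate 2 there were 3. In untreated cells the median of the 19 was -0.44, with 3 lower and 1 higher, where 1.51% and 1.36% of all genes were. No interaction passed. Without each library in turn 0 to 3 were lower in untreated cells. In the goblet and secretory list 3 of 11 tested genes were lower in treated CCNB1-positive cells, against 7.87% of all genes. TFF3, a mucosal peptide, was 2.30-fold lower and FCGBP, a mucus protein, 2.07-fold. SPINK4, a protease inhibitor of goblet cells, was also lower, a call lost without any 1 of the 4 treated libraries. MUC2, the main goblet mucin, did not pass (-0.48, adjusted p = 0.38). TFF3 and FCGBP were lower in untreated CCNB1-positive cells too, with differences of -1.32 and -0.95. Of 11 tested genes of the Wnt and stem list, whose median was 0.07, RNF43, ZNRF3 and PROM1 were lower and 8 did not pass (7.87% of all genes were lower). The 3 had differences from -0.59 to -0.49, and none of the 3 kept its call without CCNB1-negative replicate 2, CCNB1-positive replicate 1 or CCNB1-positive replicate 2. Of 23 tested intraflagellar transport and BBSome genes, which build the cilium of resting cells, 3 were lower, against 7.87% of all genes. These were IFT81, BBS4 and BBS9, and IFT122 was higher. None of the 4 was called without CCNB1-negative replicate 2, and 1 was called lower without CCNB1-positive replicate 1 or without CCNB1-positive replicate 2.

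Of 16 tested colon epithelial genes 3 were higher, against 13.8% of all genes. CEACAM5 and CEACAM6, adhesion molecules, were 3.32-fold and 3.21-fold higher in treated CCNB1-positive cells and differed by -0.16 and -0.09 in untreated ones, and FABP1 was 1.93-fold higher, a call lost without CCNB1-negative replicate 2, CCNB1-positive replicate 1 or CCNB1-positive replicate 2. The other 13 genes did not pass. Among p53 targets FAS, DDB2, BAX and MDM2 were higher, 4 of 16, against 13.8% of all genes. The count was 2 without CCNB1-negative replicate 2, CCNB1-positive replicate 1 or CCNB1-positive replicate 2.

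Metabolic genes differed between treated fractions, and few passed between untreated ones. Of 22 genes of cholesterol synthesis and its control 18 were higher, by a median of 0.74 against -0.15 in untreated cells, and 12 interactions passed, or 7 to 16 when a library was left out. SQLE, the squalene epoxidase, had 10.32 and 10.09 in treated CCNB1-negative and 11.87 and 11.59 in treated CCNB1-positive libraries, a 2.88-fold difference. EBP, a sterol isomerase, was 2.25-fold higher, and INSIG1, the sterol sensor that restrains the pathway, 2.18-fold. Without CCNB1-positive replicate 1 the count was 9 of 22 and without CCNB1-negative replicate 2 it was 11. Of 18 glycolytic genes 12 were higher, by a median of 0.69 against 0.04. The interaction passed for 2 of the 18, or for 0 to 9 when a library was left out, while 4.99% of all genes had a higher one. LDHA, the lactate dehydrogenase, was at 10.95 and 10.52 against 12.11 and 12.19, 2.67-fold higher, and ENO1 was 2.09-fold higher. The glycolytic count was 4 without CCNB1-negative replicate 2 and 7 without either CCNB1-positive library.

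Of 29 lysosomal genes 8 were higher, against 13.8% of all genes, with GLA, the alpha-galactosidase, at 3.15-fold. GAA was lower, a call lost without any 1 of the 4 treated libraries. Without CCNB1-positive replicate 1 only 1 remained higher, without CCNB1-negative replicate 2 there were 2 and without CCNB1-positive replicate 2 there were 4. For interferon-stimulated genes 7 of 21 were higher (13.8% of all genes), OAS3 3.06-fold. The count was 1 without CCNB1-positive replicate 1 and 3 without CCNB1-negative replicate 2. None of 49 cytosolic ribosomal protein genes and none of 13 mitochondrially encoded genes passed, with medians of 0.22 and -0.07. The former was 0.11 with quantile normalization. All ribosomal protein differences were positive, from 0.06 to 0.42, and 9 of these genes were called under the replicate block within each treatment. Of 51 replication-dependent histone genes, whose mRNAs mostly lack a poly(A) tail and whose copies are nearly identical, 11 were tested. HIST1H2BJ was higher and HIST1H2AC and HIST1H2BD were lower, against 13.8% and 7.87% of all genes. Neither lower call stood without CCNB1-negative replicate 2 or CCNB1-positive replicate 2, and HIST1H2AC lost it without CCNB1-positive replicate 1 as well.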

How the data were processed

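Messenger RNA of HT29 cells was sequenced as 8 libraries in 4 groups of 2. Per the study's methods, directional poly(A) libraries were made from glyoxal-fixed, sorted cells. The submitters' processing notes name Trim Galore 0.5.0, HISAT2 2.1.0, SeqMonk 1.47.0 and GRCh38. The deposited table holds log2 values of read counts per gene that the authors scaled to the total of each library. No column of another comparison was present. Between 99.99% and 100% of values came out as whole reads (tolerance 0.02 reads), and genes without reads stand at 0.9 reads. Groups follow the descriptions and column names.

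Genes with a mean over 8 libraries of at least 4.58 (1 RPM, 14219 of 38148 genes) were fitted with limma 3.58.1 (R 4.3.3, trended empirical Bayes, 4 group means), with contrasts within treated cells, within untreated cells and between them. The count tests of edgeR and DESeq2, planned as alternatives, were not run because the unit is log2. limma-voom on the recovered reads was added after the data were seen. On simulated data for the treated comparison (14828 genes) 99% of 4-fold and 63% of 2-fold changes were recovered, with 14 false among 176 calls. The simulation drew all libraries from a single mean profile with a fixed spread, 200 planted changes and no treatment or replicate effect. Its rates hold for that setting and are not those of the real comparison. Gene names were checked against GENCODE 44, which holds 99.3% of the identifiers.

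Genes named are CCNB1, the 10 largest rises and falls, up to 4 members of each list and up to 2 against its direction, the largest interactions, and 8 genes that the study names. Others were named after their values were seen. The members and lists were chosen with earlier results of these data known. The strand setting of the counting is not given in the sources used here, and 7666 of the 14219 genes overlap a gene on the other strand. Genes with near-identical copies (TUBA1B, TUBA1C, histones, KRT17) are uncertain. Figures were drawn with matplotlib 3.10.9 from tables made with Python 3.11.15. The labels give a different growth medium from the methods. Values of some members of the gene lists are not reported here.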

Additional observations from a re-analysis of the deposited data

Results flagged for a closer look

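The fraction difference itself differed between treated and untreated cells for 758 genes by the interaction term of limma, 709 with the larger value under selumetinib. The results below are the named genes with such an interaction. It is the treated minus the untreated difference, so a positive value need not be a larger gap under the drug. For CCNE2 the gap lay between the untreated fractions, and the treated ones did not pass. These results carry no explanation.

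Among the genes with a positive interaction, E2F2 had a log2 interaction of 4.44 (adjusted p = 9e-05), E2F7 of 3.69 (adjusted p = 0.00021) and CCNE2 of 3.68 (adjusted p = 3e-05). FAM111B, a replication-associated protease, had 3.63 (adjusted p = 3.6e-06) and RMI2, a partner of the BLM helicase, 3.16 (adjusted p = 9.6e-06). PBK, a mitotic kinase, had 3.53 (adjusted p = 4.5e-05) on 6 and 10 reads in CCNB1-negative libraries of treated cells, and DDIAS 3.51 (adjusted p = 5.2e-06) on 14 and 11 reads.

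Among those with a negative interaction, PNPLA7 had -1.67 (adjusted p = 0.046), MPP7 -1.57 (adjusted p = 0.007), PCDHGB7 -1.43 (adjusted p = 0.045), SWT1 -1.42 (adjusted p = 0.015) and ITPR2, a calcium channel of the endoplasmic reticulum, -1.39 (adjusted p = 0.007). PNPLA7 lost its call without 7 of the 8 libraries in turn and PCDHGB7 without 5 of them, and both without a filter on low values, under the scaling without mitochondrially encoded genes and MALAT1, and under limma-voom. SWT1 lost it without CCNB1-negative replicate 2 or CCNB1-positive replicate 1 of the treated cells.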

How the results depend on the processing

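With 2 libraries a group, single libraries set the counts. Leaving out 1 library in turn gave 1156 to 4279 genes against 3077 between treated fractions, 224 to 455 against 408 between untreated ones and 489 to 1806 against 758 for the interaction. An adjusted p under 0.01 gave 1338, 217 and 426 genes, and a 2-fold limit gave 908 and 255 for the first 2. Without a filter on low values there were 259 untreated calls and 496 interactions, and with quantile normalization 254 untreated calls. No label ties libraries of the same number to each other, but their deviations from the group means correlated at 0.43 in treated and 0.35 in untreated cells. The main fit did not pair them, so genes said not to pass are those of the unpaired fit. A replicate block gave 3741, 500 and 883 genes, and a replicate block within each treatment gave 6671, 1923 and 3850, with CDKN1A called between treated fractions (adjusted p = 0.012) and 6 in place of 3 CDK inhibitors higher. For LINC00930, interaction values changed from 0.41 to -1.35 with a pseudocount of 1 RPM, -0.82 with quantile normalization and -0.53 to 1.34 without each library. For SLC6A16, interaction values ran from -1.66 to 0.014 without each library, and for CDC25B, interaction values became 0.0070 in place of -0.21 with quantile normalization. For named genes between treated fractions, 112 leave-one-out and 33 other values lost the call, and no called gene changed direction. Among genes that did not pass, the difference changed sign without some library for MAPK3 (-0.025 to 0.68), KRT20 (-0.023 to 1.11), MT-ND6 (-0.20 to 0.88), MT-ND3 (-0.33 to 0.012), MT-ND4L (-0.21 to 0.46), MT-ND5 (-0.34 to 0.58), HIST1H2BK (-0.20 to 1.69), TIPIN (-0.39 to 0.13), PLK2 (-0.090 to 0.30), CCNE1 (-0.53 to 0.014), DUSP6 (-0.39 to 0.29), SPRY4 (-0.64 to 0.014) and EGR1 (-0.40 to 0.20). The cause was not tested. The share of interactions higher under selumetinib was 93.5% and became 69.2% with quantile normalization and 81.8% with median centring. Alternatives in edgeR and DESeq2 were not run. Depth limits genes with few reads in the treated CCNB1-negative libraries, such as HASPIN with 4 and 1.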

Other observations

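Families of genes outside the lists were counted after values were seen, by symbol, and are given as counts and medians beside the 13.8% of all genes that were higher and the 7.87% that were lower in treated CCNB1-positive cells. Of 36 proteasome subunit genes 22 were higher and none was lower, with a median log2 difference of 0.56 against -0.04 in untreated cells. The interaction passed for 2 of the 36, near the 4.99% of all genes with a higher one. PSMC3, an ATPase of the regulatory particle, had log2 values of 10.94 and 10.65 in treated CCNB1-negative and 11.88 and 11.77 in treated CCNB1-positive libraries. The count was 4 without CCNB1-negative replicate 2 or CCNB1-positive replicate 1. Of 20 nucleoporin genes 12 were higher, NUP37 by 1.33, and 7 to 9 were without each treated library. Of 78 genes for mitochondrial ribosomal proteins 22 were higher, MRPL51 by 1.18, and this became 2 without CCNB1-negative replicate 2. Of 8 CCT chaperonin genes 7 were higher and CCT6B was lower, with 1 higher without CCNB1-negative replicate 2, CCNB1-positive replicate 1 or CCNB1-positive replicate 2. Of 16 tubulin genes 8 were higher, TUBA1B by 3.12 and TUBA1C by 2.67, which share reads with near-identical copies. Of 10 keratin genes 5 were higher, and none was without CCNB1-negative replicate 2.

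Lower in treated CCNB1-positive cells were 20 of the 22 gamma-protocadherin gene models, with a median of -1.43 against -0.18 in untreated cells. These models share their last exons and stand for 1 locus, so they are not independent counts. PCDHGA12 had a difference of -1.60 (limma, adjusted p = 0.0011), and 19 or 20 models were called without each treated library. Of 382 ZNF genes 15 were higher and 36 lower, ZNF165 by 2.55 and ZNF19 by -1.20, and of 220 LINC genes 7 were higher and 28 lower. The lower share of ZNF genes was near the 7.87% of all genes. Without CCNB1-negative replicate 2 the lower counts were 2 and 7.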
